A study of Homo sapiens with 12 samples.

Results

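The respiratory chain genes of LNCaP cells comprised 111 protein-coding genes, 98 in the nucleus and 13 in the mitochondrial genome, out of 63568 genes in the deposited table. Nuclear genes were taken by symbol: those starting with NDUFA, NDUFB, NDUFC, NDUFS, NDUFV, UQCR, ATP5F, ATP5M or ATP5P, together with SDHA, SDHB, SDHC, SDHD, CYC1 and the COX4 to COX8 subunits. The mitochondrial genes were all protein-coding genes whose symbol starts with MT-. A filter of 1 TPM or more (transcript abundance corrected for length and scaled to a fixed library total) in 2 or more libraries passed 104 of them, 91 nuclear and 13 mitochondrial. By role the tested genes were 37 of 37 complex I subunits, 8 of 8 complex I assembly factors (NDUFAF), 4 of 4 complex II subunits, 10 of 10 for complex III, 13 of 18 for complex IV, 17 of 18 for complex V, the supercomplex factor COX7A2L and 1 of 2 read-through genes.

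LNCaP is a cell line derived from a lymph node metastasis of prostate cancer. The cells were transfected with an siRNA against SMARCA4, which encodes the SWI/SNF chromatin remodelling ATPase BRG1, or with a pool of non-targeting siRNAs (si-NT), and were collected after 72 h, or after 144 h with a repeat transfection at 72 h. Each time point had 2 si-NT libraries and 4 BRG1 depleted libraries, 2 for each of 2 siRNAs, numbered 2 and 3 here as in the headings of the table. The sample descriptions number them 1 and 2, and 1 sample's treatment entry goes against its title, so siRNA 2 here cannot be matched to a number used elsewhere for these siRNAs. Every library came from the same cell line on a poly(A) RNA protocol, and the controls carried a pool of siRNAs where the depleted cells carried a single one. Nothing in the descriptions says that replicates were separate cultures, so p-values measure only the spread between these libraries. In such bulk RNA, fewer cells of a type and less RNA per cell cannot be told apart.

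The respiratory chain sits in the inner mitochondrial membrane. Complex I takes electrons from NADH and complex II takes them from succinate, complex III passes them to cytochrome c, complex IV delivers them to oxygen, and complex V (ATP synthase) uses the proton gradient built by complexes I, III and IV to make ATP. Complex II is encoded wholly in the nucleus, whereas the other complexes join nuclear subunits to subunits made inside the organelle. Mitochondrial DNA is read by its own polymerase into long transcripts of the heavy and the light strand that are then cut into separate RNAs, and MT-ND6 is the only mRNA of the light strand.

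SMARCA4 measured 97.0 and 73.4 TPM with si-NT at 72 h, 21.7, 19.02, 17.5 and 19.1 after depletion, 94.5 and 107 with si-NT at 144 h and 15.9, 16.2, 11.4 and 17.4 after depletion. Its log2 fold change was -2.07 at 72 h (SE 0.16, adjusted p = 0.000538) and -2.66 at 144 h (SE 0.16, adjusted p = 1.01e-05), in limma with Benjamini-Hochberg adjustment over the 16337 genes tested, as for every adjusted p given here. Luminal prostate markers were present in each library (KLK3 from 241 to 841 TPM and KRT8 from 303 to 500.3 TPM), and 2 of 9 of them rose and 0 fell by the test at 144 h. Of all genes tested, 13.6% rose and 10.8% fell at that time. KLK2, added after its values were seen, was lower in every depleted library at both times without a call (log2 fold change -1.53, SE 0.48, adjusted p = 0.151 at 72 h and -1.18, SE 0.48, adjusted p = 0.0937 at 144 h). Of the markers of other cell types, the basal markers KRT5, KRT14 and TP63 and the leukocyte marker PTPRC were at 0.33 TPM or below in every library, and the fibroblast marker COL1A1 lay between 3.10 and 9.11 TPM. Each library held 14706 to 15355 genes at 1 TPM or more, and ERCC spike-in RNAs took 0.805% to 1.97% of the TPM. Read depth is not recorded in these values.

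The mitochondrial genes made up 11.6% to 15.3% of all TPM in a library, against 2.63% to 3.75% for the nuclear subunits of complexes I to V. Their summed level was 11.8% and 13.1% in the si-NT libraries at 72 h and 12.9%, 15.3%, 11.6% and 11.9% in the depleted ones, and at 144 h it was 12.6% and 11.6% with si-NT and 14.4%, 12.9%, 13.2% and 12.2% after depletion. The depleted and si-NT libraries overlapped at both time points. The nuclear subunits summed to 3.28% and 3.06% with si-NT at 72 h and to 3.34%, 2.63%, 3.41% and 3.56% after depletion, and at 144 h to 3.15% and 3.37% with si-NT and 3.38%, 3.33%, 3.35% and 3.75% after depletion. The replicate 2 library of siRNA 2 at 72 h stood apart, with the highest mitochondrial and the lowest nuclear sum of all 12 libraries. Among the 4 depleted libraries at 72 h it was lowest for 81 of the 91 nuclear genes tested and highest for 12 of the 13 mitochondrial genes. The same lean split each si-NT pair, so it was not particular to that library. Replicate 2 of si-NT at 72 h was the lower of its pair for 71 of the 91 nuclear genes. It was the higher for 12 of the 13 mitochondrial genes. For replicate 1 of si-NT at 144 h these counts were 78 and 12.

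The ratio of mitochondrial to nuclear subunit TPM put both genomes on a common scale. It was 3.59 and 4.28 with si-NT at 72 h, 3.86, 5.81, 3.405 and 3.35 after depletion, 3.99 and 3.45 with si-NT at 144 h and 4.25, 3.89, 3.93 and 3.26 after depletion. At 144 h the mean was 3.72 ± 0.382 (SD, n = 2) with si-NT and 3.83 ± 0.415 (SD, n = 4) after depletion, a difference smaller than either SD. The value of 5.81 belonged to the siRNA 2 library just described.

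**Figure D1:**
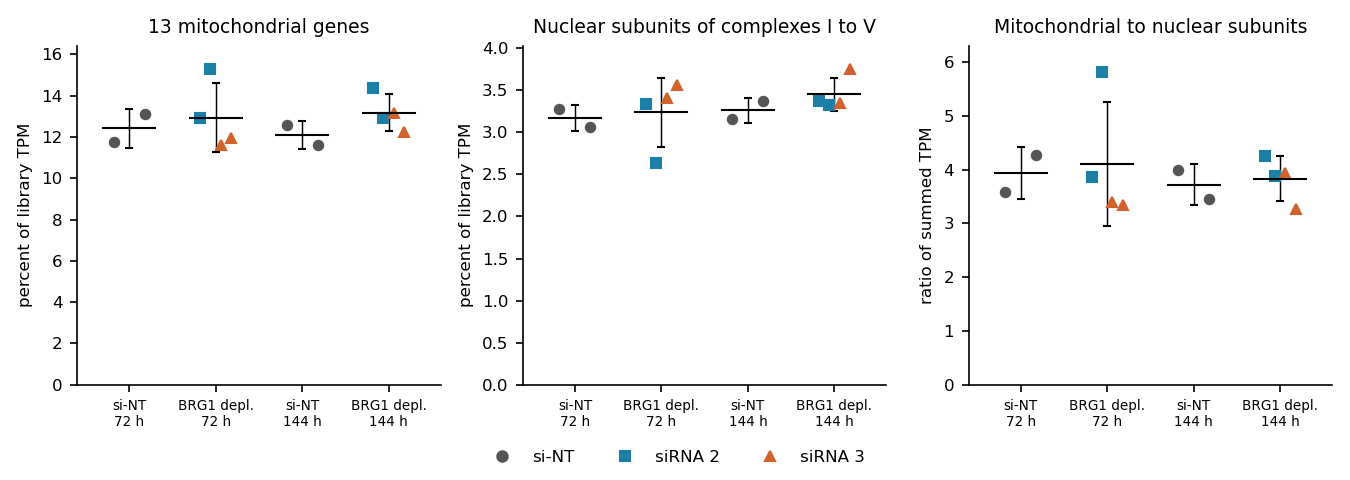
Share of library TPM held by the mitochondrial genes (left) and the nuclear subunits (middle), in percent, and the ratio of the 2 sums (right), by group. Points are libraries, lines and bars are the mean ± SD, and the depleted groups overlap their si-NT group in all 3 panels. The siRNA 2 replicate 2 library at 72 h is at 15.3%, 2.63% and a ratio of 5.81.

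After 72 h of depletion no respiratory chain gene changed by the test: limma called 0 of 104 lower and 0 of 104 higher. Of all genes tested, 0.557% and 1.13% were called in these directions. An unadjusted p under 0.05 was found for 4 of the 104, beside 2339 of the 16337 genes tested, a larger share. Median log2 fold changes were 0.03 (nuclear) and 0.08 (mitochondrial), beside 0.06 over all genes tested. Without the siRNA 2 replicate 2 library the 72 h counts stayed at 0 and 0, and the medians were 0.08 for the nuclear and 0.01 for the mitochondrial genes.

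By 144 h, 9 respiratory chain genes had risen and 5 had fallen. The 9 of 104 that rose compare with 13.6% of all genes tested, and the 5 that fell with 10.8%, so calls among respiratory chain genes were no more common than elsewhere in either direction. Another 7 had an unadjusted p under 0.05, for 21 of the 104 in all, beside 6013 of the 16337 genes tested, a larger share. None passed a log2 fold change of 1.5, the limit of size used in the study, which 1.1% of all genes passed in either direction together with an adjusted p under 0.05. The medians were 0.01 for the nuclear and 0.17 for the mitochondrial genes, beside 0.03 over all genes. Nuclear genes lay on both sides of 0, with 45 negative and 46 positive values, and 10 of the 13 mitochondrial genes were positive. Under ERCC scaling, which moved the median of all genes to -0.31, the mitochondrial median was -0.23, or 0.082 above that of all genes, where the difference was 0.146 without it. That scaling multiplies every gene of a library by the same factor, and the log2(TPM + 1) scale damps its shift for low genes.

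**Figure D2:**
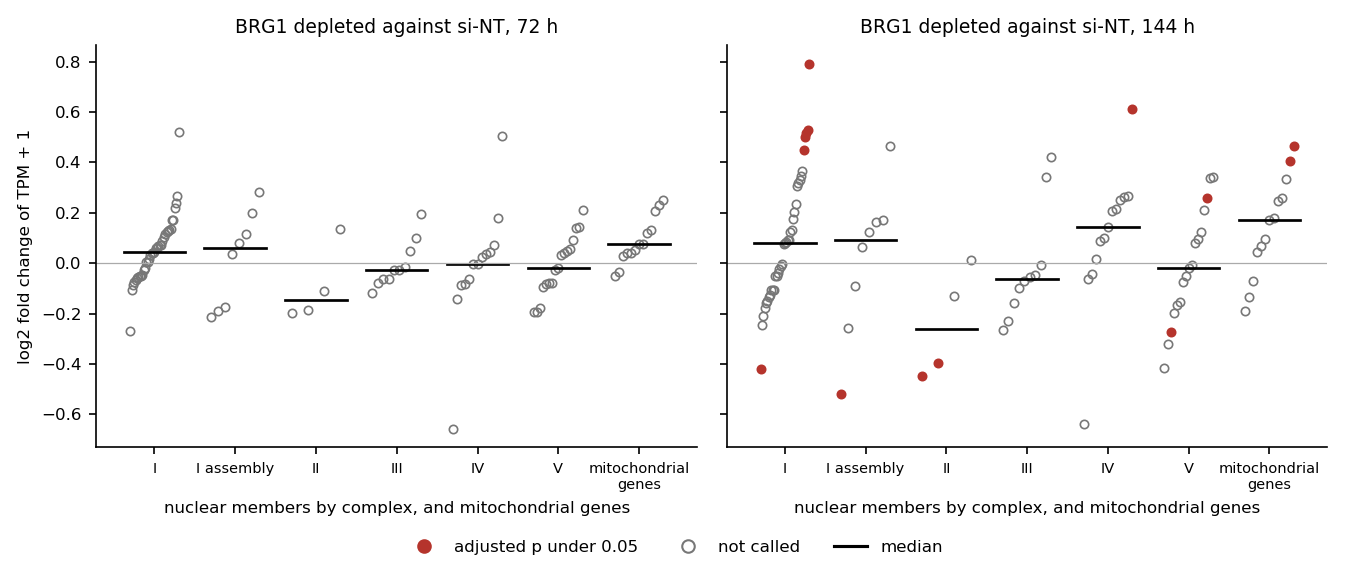
Log2 fold change of TPM + 1 for every tested gene of complexes I to V, the NDUFAF factors and the mitochondrial genome (vertical axis), by complex (horizontal axis), at 72 h (left) and 144 h (right). Filled points have an adjusted p under 0.05 and lines are medians. At 72 h there is no filled point, and at 144 h complex II has the lowest median, -0.26.

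The 144 h counts moved with the libraries entered. They were 1 higher and 4 lower without si-NT 144 h replicate 1, and 2 and 0 without si-NT 144 h replicate 2. Higher calls numbered 5, 4 and 3 on leaving out siRNA 2 replicate 1, siRNA 2 replicate 2 or siRNA 3 replicate 2 of that time point, and 16 (with 6 lower) without the siRNA 2 replicate 2 library of 72 h, which enters through the shared estimate of spread. Scaling to the ERCC spike-ins moved the median of all genes at 144 h from 0.03 to -0.31 and left 0 called in either direction, while changes relative to that median moved by at most 0.0644 over 72 values, those at both times of the genes given in every library, and 5 of the 72 changed sign.

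Of the 14 called genes, NDUFA13 stayed called in 23 of 24 alternative settings, including each library left out in turn, and NDUFA5, NDUFAF5, SDHB, SDHD and COX7B2 in 22 each. MT-ND3 kept its call in 17, NDUFA3 and NDUFC2 in 16 each, NDUFB4 and MT-ND1 in 11 each, NDUFA2 in 10, and ATP5F1B and ATP5MC2 in 8 each.

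Complex II showed the lowest median at both time points, -0.15 at 72 h and -0.26 at 144 h, and 2 of its 4 subunits fell at 144 h. Among all genes tested 10.8% fell then and 13.6% rose, shares to set beside the calls of each complex below. SDHB, the iron-sulphur subunit, lies at chr1:17345159-17380527 (GRCh37, as for all coordinates here). At 72 h SDHB measured 226 and 192 TPM with si-NT, against 194, 168, 174 and 192 TPM in the depleted libraries. At 144 h SDHB measured 196 and 218 TPM with si-NT and 150.4, 164, 155 and 158 TPM after depletion. All 4 depleted libraries of 144 h were below both si-NT libraries, and the mean fell by 24.2%, to 157 ± 5.73 TPM (SD, n = 4) against 207 ± 15.2 TPM (SD, n = 2). SDHB fell (log2 fold change -0.40, SE 0.09, adjusted p = 0.0113), whereas at 72 h its log2 fold change was -0.20 (SE 0.09, adjusted p = 0.374) and the groups overlapped.

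SDHD, a membrane anchor of complex II that helps bind ubiquinone, is at chr11:111957548-111990739. In si-NT cells SDHD stood at 150.01 and 129 TPM at 72 h and 152 and 169.7 TPM at 144 h. After depletion it stood at 121, 112, 132 and 124 TPM and 118, 117, 122 and 114 TPM in turn. The 144 h groups were separate, and the mean fell by 26.9% to 118 ± 3.37 TPM (SD, n = 4). This was the smallest adjusted p of any respiratory chain gene that fell (log2 fold change -0.45, SE 0.09, adjusted p = 0.00523), and the value at 72 h was -0.19 (adjusted p = 0.384).

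The catalytic flavoprotein SDHA and the second anchor SDHC gave no call. SDHA measured 85.6 and 82.9 TPM with si-NT and 71.7, 79.8, 82.8 and 78.3 after depletion at 72 h, then 89.1 and 89.5 TPM with si-NT and 76.3, 86.6, 81.3 and 82.2 after depletion at 144 h. Its depleted libraries lay below both si-NT libraries at each time (144 h: log2 fold change -0.13, SE 0.08, adjusted p = 0.279), and the named SDHA pseudogene copies, which can share its reads, summed to 31.0 to 42.5 TPM, so its level is uncertain. SDHC, the most abundant complex II subunit, was at 201 and 212 TPM in si-NT against 217, 214, 238 and 239 TPM in depleted cells at 72 h, and at 207 and 235 TPM against 242, 212, 224 and 212 TPM at 144 h. The depleted SDHC values were all above si-NT at 72 h, and the groups overlapped at 144 h, with a log2 fold change of 0.01 (SE 0.09, adjusted p = 0.934).

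The stretches upstream of SDHB and SDHD are shown because both subunits fell. They come from RefSeq promoter windows, placed on GRCh37 by exact match, and are printed on the gene's strand with matches to short motifs in capitals: the palindromic NRF1 motif and CCGGAAG (or its reverse complement) for GABPA. Both factors are known for binding promoters of respiratory genes. The SDHB stretch, which holds a GABPA match, covers the 150 bases before the start (chr1:17380528-17380677, minus strand), and for SDHD 30 bases around each match are given (chr11:111957477-111957506 and chr11:111957509-111957538, plus strand).
SDHB upstream: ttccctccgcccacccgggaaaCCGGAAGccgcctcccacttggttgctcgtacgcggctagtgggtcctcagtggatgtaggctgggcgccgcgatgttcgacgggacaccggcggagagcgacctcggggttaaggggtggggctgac
SDHD around the NRF1 motif: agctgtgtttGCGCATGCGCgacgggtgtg
SDHD around the GABPA motif: ccgcctctcgaCTTCCGGttcacccagcat

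Complex I held 6 of the 14 called genes among its 37 subunits, 5 that rose and 1 that fell. Of all genes tested 13.6% rose and 10.8% fell. All 6 are accessory subunits, as are most of the 37. NDUFA13, also known as GRIM-19 (chr19:19626545-19639863), had the smallest adjusted p of all respiratory chain genes. At 72 h NDUFA13 measured 338 and 339 TPM with si-NT, against 413, 389, 406 and 423 TPM in the depleted libraries. At 144 h NDUFA13 measured 324 and 342 TPM with si-NT and 476, 481, 436 and 519 TPM after depletion. Every depleted library exceeded both si-NT libraries at each time point. The mean rose by 43.5% at 144 h, to 478 ± 34.1 TPM (SD, n = 4) against 333 ± 13.1 TPM (SD, n = 2), and the change passed the test there (log2 fold change 0.52, SE 0.08, adjusted p = 0.00129) but not at 72 h (log2 fold change 0.27, SE 0.08, adjusted p = 0.14).

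NDUFB4, an accessory subunit of the membrane arm at chr3:120315175-120321354, was the most abundant complex I subunit and had the largest rise of any called gene. At 72 h NDUFB4 measured 1067 and 952 TPM with si-NT, against 1403, 950.3, 1675 and 1951 TPM in the depleted libraries. At 144 h NDUFB4 measured 1017 and 1108 TPM with si-NT and 1514, 1474, 2217 and 2305 TPM after depletion. The depleted values at 144 h were all above si-NT, with the siRNA 3 pair above the siRNA 2 pair. Its mean rose by 76.7% (log2 fold change 0.79, SE 0.26, adjusted p = 0.0454). Taken by siRNA at 144 h, the log2 fold change was 0.49 with siRNA 2 (adjusted p = 0.0603) and 1.09 with siRNA 3 (adjusted p = 0.00322), and the difference between siRNAs was 0.60 (SE 0.16, adjusted p = 0.191). Its 12 named pseudogene copies summed to at most 1.85 TPM.

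The NDUFB4 promoter is shown for the gene with the largest rise. A stretch of 142 bases shortly before the RefSeq start (chr3:120315033-120315174, plus strand) is printed with motif matches in capitals. It holds a match to the NRF1 motif and a match to AAGGTCA, a motif of the oestrogen-related receptor ESRRA. Other NRF1 matches in the same promoter window reach beyond this stretch on either side and are not shown.
NDUFB4 upstream: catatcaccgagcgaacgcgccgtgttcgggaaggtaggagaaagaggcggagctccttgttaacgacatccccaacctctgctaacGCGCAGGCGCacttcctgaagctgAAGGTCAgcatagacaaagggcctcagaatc

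NDUFA3 (chr19:54606036-54612564), a small membrane subunit of complex I, was at 26.8 and 26.8 TPM with si-NT and 36.1, 25.1, 32.1 and 33.1 after depletion at 72 h. By 144 h NDUFA3 was at 26.4 and 26.8 TPM against 38.3, 39.6, 31.9 and 43.5 TPM, with every depleted library higher (log2 fold change 0.50, SE 0.14, adjusted p = 0.0253). NDUFA5 (chr7:123177051-123197958), a subunit of the matrix arm, moved the other way. It was at 103 and 94.5 TPM with si-NT and 84.6, 78.8, 83.5 and 79.7 after depletion at 72 h, and at 97.1 and 105 TPM against 85.6, 76.3, 71.3 and 68.5 TPM at 144 h. The depleted NDUFA5 libraries were below si-NT at both times, with a fall at 144 h (log2 fold change -0.42, SE 0.10, adjusted p = 0.0092) and a value of -0.27 at 72 h (adjusted p = 0.206).

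NDUFC2 and NDUFA2 completed the complex I genes that rose and are named because they were called, after their values were seen. NDUFC2 (chr11:77779343-77790908) went from 329 and 359 TPM with si-NT to 493, 494, 453 and 547 after depletion at 144 h (log2 fold change 0.53, SE 0.16, adjusted p = 0.0361). The corresponding 72 h values of NDUFC2 were 347 and 346 TPM in si-NT against 434, 271, 419.6 and 418 TPM in depleted cells, where the siRNA 2 replicate 2 library was lowest and the groups overlapped. NDUFA2 (chr5:140018325-140027356) went from 158 and 164 to 203, 227, 199 and 256 TPM at 144 h (log2 fold change 0.45, SE 0.15, adjusted p = 0.044), and its 72 h values were 155 and 142 TPM in si-NT against 172, 126, 177 and 182 TPM in depleted cells.

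Nuclear core subunits of complex I, which carry the flavin and iron-sulphur clusters, are given here as a group chosen after their values were seen, and those named gave no call at 144 h. NDUFS1 had a log2 fold change of -0.21 (SE 0.11), NDUFS3 0.08 (SE 0.13) and NDUFS7 -0.00 (SE 0.13). For NDUFS8 the value was 0.20 (SE 0.13), for NDUFV1 0.17 (SE 0.10) and for NDUFV2 -0.13 (SE 0.12). Over all 37 subunits the median was 0.04 at 72 h and 0.08 at 144 h, with values from -0.42 to 0.79 at the later time.

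Among the 8 NDUFAF assembly factors 1 fell. NDUFAF5, which modifies the core subunit NDUFS7 during assembly, lies at chr20:13765653-13802226. At 144 h NDUFAF5 went from 26.4 and 30.7 TPM with si-NT to 18.7, 21.1, 17.3 and 21.1 after depletion (log2 fold change -0.52, SE 0.13, adjusted p = 0.0158). The groups did not overlap then, whereas at 72 h they held 27.8 and 24.2 TPM in si-NT against 21.8, 20.7, 22.1 and 27.6 TPM in depleted cells and did. The largest positive value was that of NDUFAF4, 0.46 (SE 0.22, adjusted p = 0.142), and the median of the 8 was 0.09.

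None of the 10 complex III genes was called at either time in limma. At 144 h 2 of them had an unadjusted p under 0.05, beside 6013 of the 16337 genes tested. The small subunits UQCR10 and UQCR11 and the Rieske iron-sulphur protein UQCRFS1 had the smallest adjusted p. UQCR10 measured 226 and 189.6 TPM in si-NT against 258, 192, 233 and 273 TPM in depleted cells at 72 h, and 213 and 234 TPM against 280.3, 288, 256 and 312 TPM at 144 h. Its later groups were separate without passing the test (log2 fold change 0.34, SE 0.14, adjusted p = 0.0912). UQCR11 measured 259.9 and 267 TPM in si-NT against 246, 224, 321 and 313 TPM in depleted cells at 72 h, and 295 and 271 TPM against 351, 351, 335 and 495 TPM at 144 h. The highest of these came from siRNA 3 replicate 2 (log2 fold change 0.42, SE 0.17, adjusted p = 0.101). UQCRFS1 measured 238 and 208 TPM in si-NT against 215, 179, 206 and 223 TPM in depleted cells at 72 h, and 231 and 252 TPM against 191, 199.9, 203 and 229 TPM at 144 h. All 4 later depleted values were below si-NT (log2 fold change -0.23, SE 0.11, adjusted p = 0.142).

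Cytochrome c1 (CYC1), the haem subunit that hands electrons to cytochrome c, was at 362 and 295 TPM with si-NT and 305, 257, 341 and 359 after depletion at 72 h. At 144 h CYC1 was at 351 and 344 TPM against 244, 306, 288 and 324 TPM, with every depleted value lower and no call (log2 fold change -0.26, SE 0.15, adjusted p = 0.216). The 72 h groups overlapped. The hinge protein gene UQCRH was the most abundant of the complex, at 1113 and 1064 TPM in si-NT against 1183, 889, 1111 and 1151 TPM in depleted cells at 72 h and at 1098 and 1185 TPM against 1157, 1028, 1065 and 1155 TPM at 144 h. The UQCRH groups overlapped at both times (144 h: log2 fold change -0.05, SE 0.11, adjusted p = 0.77). Its retrocopy UQCRHL, counted among the 10, was listed at 99.7 to 161 TPM, and because the copies are nearly identical, reads could be split between them and both levels are uncertain.

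Complex IV had 1 call among 13 tested subunits, COX7B2 (chr4:46736844-46911262), a paralogue of COX7B known from testis. At 72 h COX7B2 measured 11.8 and 14.4 TPM with si-NT, against 18.6, 18.9, 16.6 and 21.8 TPM in the depleted libraries. At 144 h COX7B2 measured 13.4 and 15.3 TPM with si-NT and 26.3, 22.5, 19.8 and 21.6 TPM after depletion. Depleted libraries exceeded si-NT ones at both times. The mean rose by 57.2% at 144 h (log2 fold change 0.61, SE 0.14, adjusted p = 0.00844), and at 72 h the log2 fold change was 0.50 (adjusted p = 0.105). The ubiquitous COX7B was at 110 to 165 TPM, with a log2 fold change of 0.02 at 144 h (SE 0.14, adjusted p = 0.945).

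The other complex IV subunits named by rule were COX7C, COX6A1 and COX6C. COX7C, the most abundant, was at 1401 and 1325 TPM in si-NT against 1327, 1089.7, 1372 and 1376 TPM in depleted cells at 72 h and at 1306 and 1444 TPM against 1376, 1235, 1253 and 1400.0 TPM at 144 h. COX7C groups overlapped at both times (log2 fold change -0.06, SE 0.11, adjusted p = 0.709 at 144 h). COX6A1 was at 1064 and 1226 TPM in si-NT against 1185, 960.4, 1181 and 1251 TPM in depleted cells at 72 h and at 1069.5 and 1078 TPM against 1263, 1232, 1158 and 1334 TPM at 144 h. The later depleted COX6A1 values were all higher, with no call (log2 fold change 0.21, SE 0.11, adjusted p = 0.185) and with 14.3 to 28.0 TPM listed for its named copies. COX6C was at 507 and 413 TPM in si-NT against 501, 428, 487 and 513 TPM in depleted cells at 72 h and at 444 and 459 TPM against 507, 489, 509 and 584 TPM at 144 h (log2 fold change 0.21, SE 0.11, adjusted p = 0.191 at 144 h).

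Isoform pairs showed which form LNCaP cells use, on the TPM scale, which corrects for length. COX4I1 ran from 676 to 971 TPM and COX4I2, the lung form, was at 0.18 TPM or below. COX6B1 ran from 613 to 868 TPM and COX6B2 reached 0.19 TPM, and COX8A ran from 506 to 993 TPM while COX8C reached 0.18 TPM. The heart and muscle forms COX6A2 and COX7A1 were listed at 0 in every library, where COX6A1 ran from 960.4 to 1334 TPM and COX7A2 from 370.2 to 627 TPM. NDUFA4, now counted with complex IV, ran from 151 to 302 TPM against 0.61 to 4.25 TPM for NDUFA4L2, and the difference at 144 h was 0.26 for NDUFA4 (adjusted p = 0.294) and -0.64 for NDUFA4L2 (adjusted p = 0.24).

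Complex V had 1 gene that rose and 1 that fell among 17 tested. ATP5F1B (chr12:57031959-57039768), the catalytic beta subunit and the most abundant nuclear gene of the complex, was at 1737 and 1739 TPM with si-NT and 1560.5, 1538, 1704 and 1793 after depletion at 72 h. At 144 h ATP5F1B was at 1726 and 1845 TPM against 1380.3, 1458, 1487 and 1591 TPM, all 4 depleted libraries below si-NT, and the mean fell by 17.2% (log2 fold change -0.27, SE 0.09, adjusted p = 0.0425). Its partner, the alpha subunit ATP5F1A, had a log2 fold change of -0.05 (SE 0.07, adjusted p = 0.633).

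The membrane ring of ATP synthase is built of a c subunit whose mature protein is encoded in 3 copies, ATP5MC1, ATP5MC2 and ATP5MC3. ATP5MC2 (chr12:54026510-54071192) was at 834 and 824 TPM in si-NT against 1063, 871, 949 and 964 TPM in depleted cells at 72 h and at 774 and 787 TPM against 904, 947, 923 and 958 TPM at 144 h. Depleted values were higher throughout, and ATP5MC2 rose at 144 h (log2 fold change 0.26, SE 0.08, adjusted p = 0.0411). Under ERCC scaling the value was -0.15, which is 0.167 above the median of all genes (0.231 above it without that scaling). On log2(TPM + 1) that scaling shifts low genes less than abundant ones. ATP5MC1 was at 320.3 and 273 TPM in si-NT against 272, 187, 278 and 315 TPM in depleted cells at 72 h and at 304 and 299 TPM against 233, 228, 235 and 207 TPM at 144 h. All later depleted ATP5MC1 values were below si-NT, without a call (log2 fold change -0.42, SE 0.16, adjusted p = 0.0872). ATP5MC3 ran from 490.2 to 751 TPM over the 12 libraries, with -0.01 at 144 h (SE 0.16, adjusted p = 0.977).

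**Figure D3:**
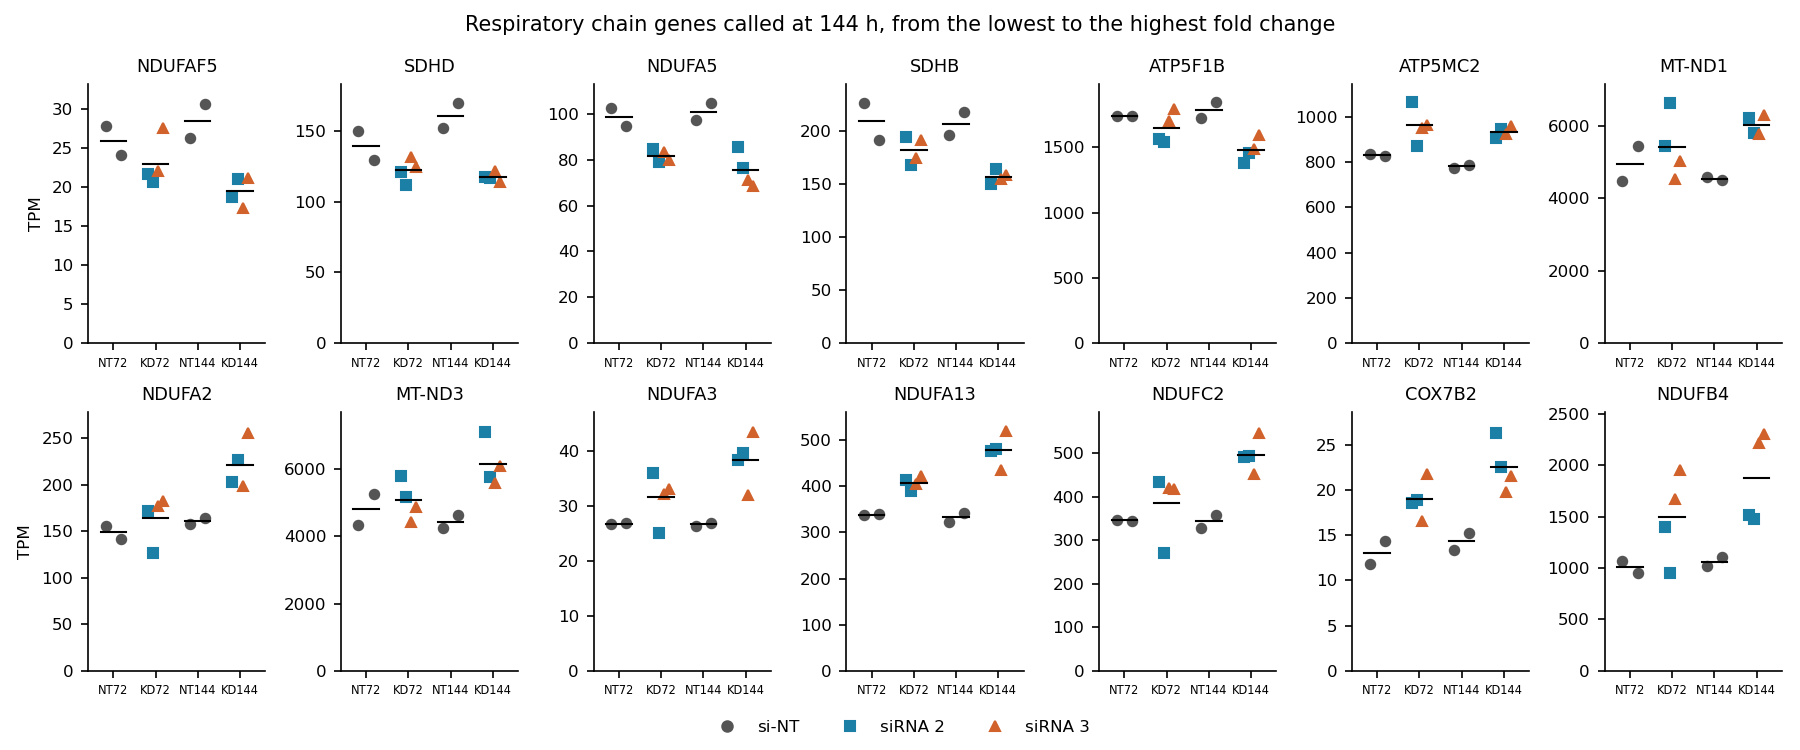
TPM in each of the 12 libraries (vertical axes, from 0) for the 14 genes called at 144 h, ordered from NDUFAF5 (log2 fold change -0.52) to NDUFB4 (0.79). NT and KD mark si-NT and BRG1 depleted cells with the hours after transfection, points are libraries by siRNA and lines are group means. In every panel the 4 KD144 points lie outside the range of the 2 NT144 points.

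All depleted libraries lay on the same side of both si-NT libraries at 144 h for 51 of the 104 genes, 32 above and 19 below. That is 30.8% and 18.3% of them, where 26.1% of all genes tested were above and 22.5% below. Among the 13 mitochondrial genes 7 were above and 0 below. At 72 h only 4 of the 104 genes were above and 2 below, 3.85% and 1.92%, where 16.3% and 6.93% of all genes were.

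The mitochondrial genes MT-ND1 and MT-ND3, both parts of the membrane arm of complex I, were the 2 that rose at 144 h. MT-ND1 (chrM:3307-4262) measured 4472 and 5442 TPM with si-NT and 5441, 6627, 4532 and 5036 after depletion at 72 h. At 144 h MT-ND1 went from 4583 and 4493 to 6209.5, 5799, 5779.8 and 6289 TPM, a rise of 32.6% (log2 fold change 0.41, SE 0.14, adjusted p = 0.0481). MT-ND3 (chrM:10059-10404) measured 4337 and 5258 TPM in si-NT against 5793, 5169, 4430.4 and 4851 TPM in depleted cells at 72 h, where its groups overlapped. At 144 h MT-ND3 went from 4236 and 4625 to 7099, 5757, 5583 and 6084 TPM, a rise of 38.4% (log2 fold change 0.46, SE 0.13, adjusted p = 0.0249). Under ERCC scaling the 144 h values were 0.00 for MT-ND1 and 0.06 for MT-ND3, against -0.31 for the median gene.

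The other complex I genes of the organelle gave no call. MT-ND2 measured 5547 and 6263 TPM in si-NT against 7597, 8770.0, 5692 and 6017 TPM in depleted cells at 72 h, and 5866 and 5537 TPM against 8636, 7815, 6637 and 5928 TPM at 144 h. Its siRNA 2 libraries were above those of siRNA 3 at both times, and at 144 h every depleted value exceeded si-NT (log2 fold change 0.33, SE 0.18, adjusted p = 0.216). MT-ND4 measured 10276 and 10775 TPM in si-NT against 10829, 13837, 9733 and 9074 TPM in depleted cells at 72 h, and 11059 and 9563 TPM against 12727, 12274, 10685 and 11003 TPM at 144 h. MT-ND5 measured 1150.3 and 1305 TPM in si-NT against 1286, 1909, 1340.2 and 1211 TPM in depleted cells at 72 h, and 1424 and 1237 TPM against 1905, 1611, 1617 and 1243 TPM at 144 h. Groups of both overlapped, with 144 h values of 0.18 (SE 0.15) and 0.25 (SE 0.19). MT-ND6, from the light strand, was the lowest of the 13, at 389 and 383 TPM in si-NT against 337, 526, 501 and 503 TPM in depleted cells at 72 h and at 461 and 438 TPM against 562, 352, 417 and 292 TPM at 144 h. Its depleted libraries ranged on both sides of si-NT (log2 fold change -0.19, SE 0.23, adjusted p = 0.593 at 144 h). MT-ND6 mRNA is known to carry little poly(A), on which these libraries were selected.

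For complex III the organelle encodes cytochrome b, MT-CYB, at 6148 and 7749.5 TPM in si-NT against 6999, 9347, 6342 and 6305 TPM in depleted cells at 72 h and at 6552 and 5917 TPM against 8166, 7327, 7229.6 and 7122 TPM at 144 h. The 4 later depleted values were all above si-NT without a call (log2 fold change 0.26, SE 0.16, adjusted p = 0.258). The catalytic core of complex IV is MT-CO1, MT-CO2 and MT-CO3. MT-CO1 was at 13049.6 and 14587 TPM in si-NT against 13553, 16716, 13535 and 14621 TPM in depleted cells at 72 h and at 14778 and 13839 TPM against 15075, 14932, 14989.8 and 15050.5 TPM at 144 h. MT-CO2 was at 17729.8 and 18811 TPM in si-NT against 19265, 21257, 17051 and 17824 TPM in depleted cells at 72 h and at 17986 and 16037 TPM against 19262, 19218, 18705 and 19379 TPM at 144 h. MT-CO3 was at 17339 and 18505 TPM in si-NT against 18175, 20074, 17284 and 18359 TPM in depleted cells at 72 h and at 18632 and 18312 TPM against 19718, 18830.2, 19425 and 21061 TPM at 144 h. Depleted values of all 3 were above si-NT at 144 h by small differences, 0.07 (SE 0.10) for MT-CO1, 0.17 (SE 0.10) for MT-CO2 and 0.10 (SE 0.09) for MT-CO3, with adjusted p of 0.66, 0.247 and 0.478.

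**Figure D4:**
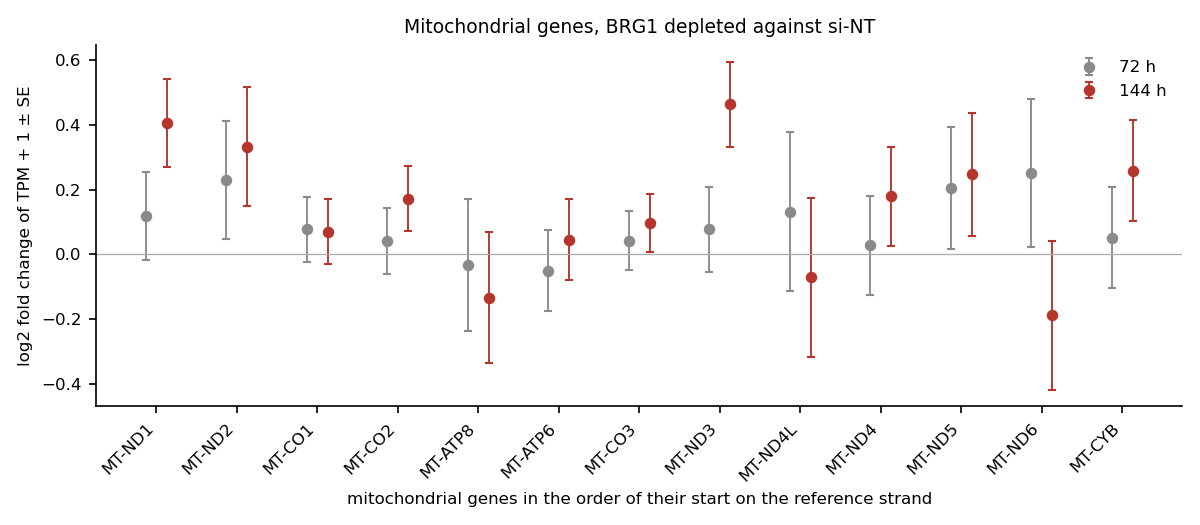
Log2 fold change of TPM + 1 with its standard error from limma (vertical axis) for the 13 mitochondrial genes in genome order (horizontal axis), at 72 h (grey) and 144 h (red). MT-ND1 (0.41) and MT-ND3 (0.46) are the highest at 144 h, and MT-ATP8, MT-ND4L and MT-ND6 lie below 0 at that time.

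MT-ATP8 with MT-ATP6, and MT-ND4L with MT-ND4, are each carried on a shared mRNA with overlapping reading frames, and the overlaps are shown because reads from them belong to both genes. MT-ATP8 (chrM:8366-8572) and MT-ATP6 (chrM:8527-9207) share 46 bases, chrM:8527-8572, printed with the start codon of MT-ATP6 and the stop codon of MT-ATP8 in capitals. MT-ND4L (chrM:10470-10766) and MT-ND4 (chrM:10760-12137) share 7 bases, in capitals within chrM:10750-10776.
MT-ATP8 and MT-ATP6 overlap: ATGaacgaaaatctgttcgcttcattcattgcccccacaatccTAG
MT-ND4L and MT-ND4 overlap: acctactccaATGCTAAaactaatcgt

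MT-ATP6, the proton channel subunit of ATP synthase, was at 10453 and 10917 TPM in si-NT against 10442, 12724, 9083 and 9383 TPM in depleted cells at 72 h and at 10747 and 9573 TPM against 10566, 10577, 10078 and 10667 TPM at 144 h (log2 fold change 0.05, SE 0.12, adjusted p = 0.824 at 144 h). MT-ATP8 was at 16929 and 19396 TPM in si-NT against 18174, 21625, 15620.2 and 16015 TPM in depleted cells at 72 h and at 17994 and 16156 TPM against 19304, 14118, 18711 and 11433 TPM at 144 h (log2 fold change -0.13, SE 0.20, adjusted p = 0.677 at 144 h). The ratio of MT-ATP8 to MT-ATP6 lay between 1.62 and 1.86 in 10 libraries, and was 1.33 and 1.07 in the replicate 2 libraries of siRNA 2 and siRNA 3 at 144 h. MT-ND4L was at 9741 and 11469 TPM in si-NT against 11102, 14412, 10990.4 and 10223 TPM in depleted cells at 72 h and at 11589 and 10581 TPM against 14446, 10752, 11943 and 6663 TPM at 144 h (log2 fold change -0.07, SE 0.25, adjusted p = 0.864 at 144 h). Its ratio to MT-ND4 was 0.948 to 1.14 in the same 10 libraries, and 0.876 and 0.606 in the other two. Without siRNA 3 replicate 2 at 144 h, the log2 fold change of MT-ATP8 was 0.01 and that of MT-ND4L 0.15.

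**Figure D5:**
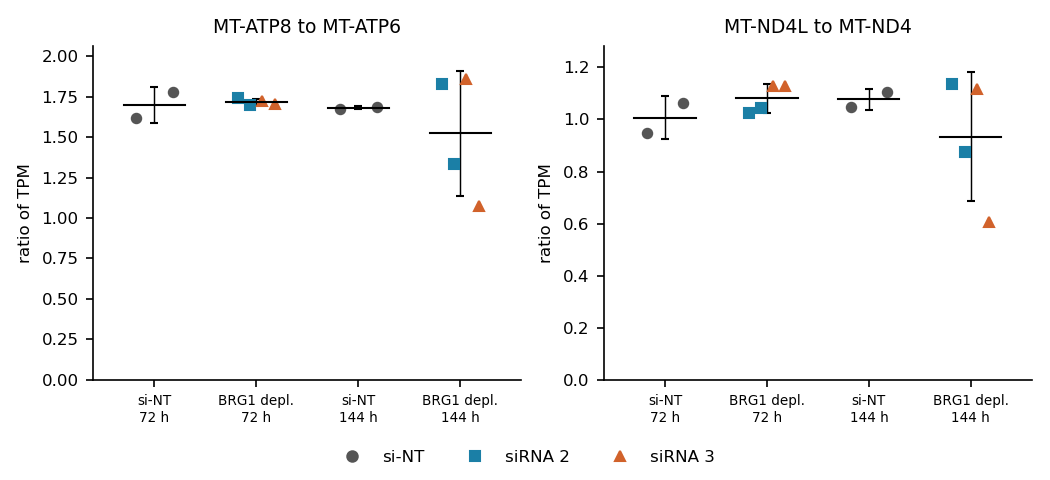
Ratio of TPM between the genes of each shared mitochondrial mRNA, MT-ATP8 to MT-ATP6 (left) and MT-ND4L to MT-ND4 (right), by group. Points are libraries and lines with bars are the mean ± SD, and the lowest point in each panel, 1.07 and 0.606, is siRNA 3 replicate 2 at 144 h.

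Nuclear copies of mitochondrial genes can take reads from them. The largest were MTATP6P1 at 1039 to 1496 TPM, MTND2P28 at 136 to 251 TPM and MTCO1P12 at 101 to 153 TPM, all on chromosome 1, so the levels of MT-ATP6, MT-ND2 and MT-CO1 are the more uncertain. The highest listed copies of MT-ND1 and MT-ND3 were low, MTND1P23 at 0.70 to 6.18 TPM and MTND3P25 at 0 to 4.73 TPM. The mitochondrial rRNA genes, looked at after the values of the mRNAs were seen, rose at 144 h: MT-RNR1 went from 2644 and 2559 to 3446, 3102, 3606 and 3585 TPM (log2 fold change 0.40, SE 0.10, adjusted p = 0.013) and MT-RNR2 from 8794 and 8275 to 13057, 10744, 12426 and 11951 TPM (log2 fold change 0.49, SE 0.11, adjusted p = 0.00834). These rRNA values come from libraries selected on poly(A), and their change under ERCC scaling was not examined.

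The change at 144 h differed from that at 72 h for 0 of the 104 genes in limma (0.0184% of all genes). An unadjusted p under 0.05 was found for 1 respiratory chain gene, beside 1943 of the 16337 genes tested. A call at 144 h alone therefore does not show a difference between the time points. In si-NT cells 0 of 104 differed between 144 h and 72 h (0% of all genes), and 0 had an unadjusted p under 0.05, beside 671 of the 16337. The siRNAs differed from each other for 0 of 104 genes at 72 h (0.141% of all genes) and for 0 of 104 at 144 h (0.331% of all genes). At 72 h 24 of the 104 had an unadjusted p under 0.05, a larger share than the 1361 of 16337 genes tested. At 144 h 5 of the 104 had one, a smaller share than the 2175 of 16337. At 72 h siRNA 3 was nonetheless above siRNA 2 for 87 of the 91 nuclear genes, with a median difference of 0.19, and below it for 12 of the 13 mitochondrial genes, with a median of -0.30. That lean ran with the siRNA 2 replicate 2 library described above, and its part in the result was not tested. At 144 h the medians were 0.02 and -0.13. Leaving out siRNA 2 replicate 1 at 72 h instead gave 4 genes that differed between the siRNAs at that time.

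Promoter windows from RefSeq (250 bases before to 50 after a start) were found for 77 of the 98 nuclear genes, 95 windows in all. Both strands were searched for 4 motifs. The NRF1 motif was in 18.9% of these windows against 5.78% of all 35116, GABPA's CCGGAAG in 26.3% against 10.3%, YY1's AAGATGGC in 15.8% against 2.89% and ESRRA's AAGGTCA in 12.6% against 3.92%. Matches to different motifs did not overlap in any of the 95 windows. At least 1 motif was in 52.6% of the 95 windows, against 20.5% of all 35116. By gene, at least 1 was present for 47 of the 77, and for 7 of the 10 called nuclear genes with a window. The 7 were NDUFB4, NDUFA3, NDUFA13, NDUFA5, NDUFAF5, SDHB and SDHD, of which the first 3 rose and the last 4 fell, while COX7B2, NDUFA2 and ATP5MC2 held none. By complex, the NRF1 motif was found for 6 of 32 complex I genes, 2 of 3 for complex II, 4 of 7 for complex III, 1 of 13 for complex IV and 4 of 13 for complex V. A match describes the letters in the window and no binding.

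All calls among the genes that maintain and transcribe mitochondrial DNA and process its RNA were falls at 144 h, when 10.8% of all genes tested fell and 13.6% rose. Of 12 genes of mitochondrial transcription and DNA upkeep, 4 fell and 0 rose at 144 h, with a median of -0.38 (0.03 over all genes), among them TWNK, the mitochondrial DNA helicase (log2 fold change -0.62, SE 0.10, adjusted p = 0.00197), and MGME1, a DNA exonuclease (log2 fold change -0.73, SE 0.14, adjusted p = 0.00456). TFAM, the packaging and transcription factor of mitochondrial DNA, went from 38.9 and 34.4 to 21.0, 23.2, 25.9 and 18.8 TPM (log2 fold change -0.70, SE 0.17, adjusted p = 0.0115). It and POLRMT are named beyond the rule, after their values were seen. The mitochondrial RNA polymerase POLRMT had a value of 0.12 (adjusted p = 0.52). Of 18 genes of mitochondrial RNA handling, 5 fell and 0 rose, with a median of -0.27, and 2 of the 18 had positive values without a call. They included PNPT1, a polynucleotide phosphorylase (log2 fold change -0.61, SE 0.12, adjusted p = 0.00508), TRMT10C, a subunit of the RNase that frees mitochondrial tRNAs (log2 fold change -0.52, SE 0.14, adjusted p = 0.0187), and TBRG4, an RNA-binding protein (log2 fold change -0.38, SE 0.10, adjusted p = 0.0228).

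Regulators of respiratory genes were mixed, with 5 of 12 lower and 2 higher at 144 h and a median of -0.31. The share that rose was near the 13.6% of all genes, and the share that fell stands beside 10.8% of all genes. MYC was also the only listed gene called at 72 h, at 192 and 191 TPM with si-NT and 128, 131, 154 and 134 after depletion (log2 fold change -0.49, SE 0.09, adjusted p = 0.0292). At 144 h MYC went from 216 and 195 to 89.2, 98.5, 99.8 and 88.9 TPM (log2 fold change -1.12, SE 0.09, adjusted p = 3.86e-05). TFEB, a regulator of lysosome genes and mitochondrial turnover, rose (log2 fold change 0.86, SE 0.14, adjusted p = 0.0014), and PPARGC1A, the coactivator PGC-1 alpha, fell from a level of 1.32 and 1.40 TPM (log2 fold change -0.90, SE 0.18, adjusted p = 0.00531). NRF1 and GABPA, added after their values were seen, are among the factors of the motifs above. NRF1 had a value of -0.34 (adjusted p = 0.0769) and GABPA -0.15 (adjusted p = 0.507). The other motif factors, ESRRA and YY1, are given in TPM only. At 144 h ESRRA went from 72.15 and 71.79 with si-NT to 54.25, 64.73, 47.73 and 49.87 after depletion, all lower. YY1 went from 56.88 and 61.17 to 59.86, 52.11, 53.06 and 41.62, and its groups overlapped.

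Cytochrome c (CYCS), the carrier between complexes III and IV, fell at 144 h from 528 and 643 to 402, 382, 292 and 302 TPM (log2 fold change -0.77, SE 0.18, adjusted p = 0.00942). In the TCA cycle, which supplies NADH and succinate, 3 of 13 enzymes fell and 2 rose, beside 10.8% and 13.6% of all genes. Citrate synthase CS (log2 fold change -0.62, SE 0.10, adjusted p = 0.00149) and fumarase FH (log2 fold change -0.40, SE 0.10, adjusted p = 0.0135) were among those that fell, and IDH3G, an isocitrate dehydrogenase subunit added after its values were seen, was among those that rose (log2 fold change 0.37, SE 0.10, adjusted p = 0.0217). Dedicated assembly factors changed in small numbers, to be read against the same shares of all genes. For complex I beyond the NDUFAF genes 2 of 10 fell and 0 rose, NUBPL (log2 fold change -0.60, SE 0.13, adjusted p = 0.0066) and TMEM186 (log2 fold change -0.43, SE 0.13, adjusted p = 0.0283). For complex II 0 of 4 fell and 1 rose, SDHAF2, which adds the flavin to SDHA (log2 fold change 0.71, SE 0.22, adjusted p = 0.0389). For complex III 0 of 6 were called, with 1 at an unadjusted p under 0.05 in limma. For complex IV 2 of 21 fell and 3 rose, close to those shares, with COA3 the smallest adjusted p (log2 fold change 0.41, SE 0.11, adjusted p = 0.0186), and for ATP synthase 0 of 5 fell and 1 rose, ATPAF2, which acts on the catalytic head (log2 fold change 0.35, SE 0.10, adjusted p = 0.0321).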

How the data were processed

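LNCaP RNA was sequenced from poly(A) libraries in 12 samples. The authors mapped reads to GRCh37 with STAR (2.4.0j), counted them into GENCODE v19 genes with featureCounts and, with ERCC spike-ins, deposited values in TPM to 2 decimals. Counting settings for reads shared by overlapping genes or copies are not given in the sources used here, so close copies may trade reads. TPM keep no depth, which is therefore unknown, and no interval for counting error is given. Column names gave each si-NT library its sample and placed each siRNA library in its group. Symbols and coordinates came from GENCODE v44 on GRCh37, matching 55665 of 63568 identifiers.

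The 16337 genes that reached 1 TPM in 2 or more libraries were fitted as log2(TPM + 1), a scale that understates changes of low genes, with limma 3.58.1 in R 4.3.3 (trended eBayes) over the 4 groups, or over 6 groups for contrasts between siRNAs. A gene was called at an adjusted p under 0.05 (Benjamini-Hochberg over all genes tested), with no limit on fold. The steps were tested on simulated data. The members and the gene lists were chosen with earlier results of these data known. Values in every library were given for all mitochondrial genes, SDHA to SDHD, CYC1, and in each nuclear complex the 3 genes with the smallest adjusted p at 144 h and the most abundant in si-NT. Further genes were given by range, and of each list at most 3 genes with the smallest adjusted p were named, plus genes said to be added. Alternatives covered scaling, pseudocount, filters, model and each library left out, and their results are for the respiratory chain genes. Calls of the other listed genes, and of MT-RNR1 and MT-RNR2, were not examined under these alternatives. The listed symbols SCO2 and PECAM1 were not matched and not analysed here. A few values for single genes are not reported here.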

Additional observations from a re-analysis of the deposited data

Results flagged for a closer look

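Within the depleted groups of 4 libraries, 82 sets of values were examined for a library far from the other three by Dixon's ratio at its 95% limit, and 4 stood out, where chance gives about 1 in 20. MT-ND6 at 72 h was 337 TPM in siRNA 2 replicate 1, against 501 to 526 TPM in the other libraries. NDUFC2 at 72 h was 271 TPM in siRNA 2 replicate 2, against 418 to 434 TPM. UQCR11 at 144 h was 495 TPM in siRNA 3 replicate 2, against 335 to 351 TPM. The summed nuclear subunits at 144 h were 37490.0 TPM in the same siRNA 3 replicate 2 library, against 33290.0 to 33780.0 TPM.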

How the results depend on the processing

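The call of a gene depended on the si-NT pair and on the scaling. Higher calls at 144 h numbered 9, and 2 with median-of-ratios size factors, 2 without a filter on low values, 5 without the trend, 15 from the libraries of the time point only, 16 with si-NT of both times combined, 2 at an adjusted p under 0.01, and 0 with ERCC scaling or a log2 limit of 1.5. Lower calls numbered 5, and 9 with si-NT combined, 2 at an adjusted p under 0.01, and 0 with ERCC scaling or the limit of 1.5. At 72 h the 0 lower and 0 higher became 1 and 3 with si-NT combined. Leaving out each library in turn gave 1 to 16 higher and 0 to 6 lower at 144 h, 0 to 0 for each direction at 72 h, 0 to 4 differences between the siRNAs at 72 h, and 0 to 0 for the siRNAs at 144 h, the time points and si-NT over time. Medians then ranged from -0.06 to 0.08 (nuclear) and from -0.00 to 0.22 (mitochondrial) at 72 h, and from -0.04 to 0.05 and from 0.08 to 0.26 at 144 h. ERCC scaling gave nuclear medians of -0.17 and -0.39 at 72 h and 144 h and a mitochondrial one of -0.23 at 144 h, and quantile normalisation gave 0.0617 for the latter.

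Replicate numbers gave little sign of pairing the samples: of 15 correlations between groups of the replicate differences, 2 exceeded 0.1 (range -0.229 to 0.3). The highest was between si-NT and siRNA 2 at 72 h. Such correlations over all genes cannot exclude pairing or a shared batch. The replicate block gave 6 higher and 4 lower at 144 h and 0 in every other comparison.

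ERCC scaling multiplies every gene of a library by the same factor, but the pseudocount added before the log damps the resulting shift for low genes. Of 72 values 5 changed sign relative to the median of all genes (COX6C and MT-ND3 at 72 h, MT-ATP6 at 144 h, MT-CO1 at both). On the absolute scale signs turned as follows at 144 h: ATP5MC2 -0.15, COX6A1 -0.19, COX6C -0.20, MT-ATP6 -0.36, MT-CO1 -0.33, MT-CO2 -0.23, MT-CO3 -0.31, MT-CYB -0.15, MT-ND2 -0.0712, MT-ND4 -0.23, MT-ND5 -0.16, SDHC -0.39 and UQCR10 -0.0603. At 72 h they were MT-ND1 -0.0778, MT-ND3 -0.12, NDUFA2 -0.0665, NDUFC2 -0.0655 and SDHC -0.0597. Median-of-ratios size factors gave SDHC -0.0204 at 144 h, and quantile normalisation gave COX7C 0.0504, MT-ATP6 -0.23, MT-CO3 -0.0148 and UQCRH 0.11 at 144 h and ATP5F1B 0.0153 at 72 h. Of these, ATP5MC2 at 144 h alone was a called value. Leaving out a library turned SDHC (-0.0805 to 0.1062), COX7C (-0.1358 to 0.0087), MT-ATP6 (-0.0377 to 0.1291), UQCRH (-0.1083 to 0.0015), MT-ATP8 (-0.2382 to 0.0137) and MT-ND4L (-0.222 to 0.1501) at 144 h, and MT-ND1 (-0.0229 to 0.2602) and MT-ND3 (-0.062 to 0.2156) at 72 h. The share of mitochondrial genes moved by less than the spread between libraries when ERCC left the total. The cause of these shifts was not tested.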
